A study of Rattus norvegicus with 18 samples.

Results

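Collagen chain genes encode the polypeptides that wind together into the collagen triple helix. Every gene of the count table whose symbol has the form of a collagen chain (Col, a type number, the letter a and a chain number) was taken if it had 10 or more counts in at least 3 of the 18 libraries. That gave 26 of the 27 such symbols in a table of 17337 genes. All 26 were among the 11814 genes kept for testing. By the structure of their products 10 are fibrillar, 4 network-forming, 2 of the beaded filament, 4 fibril-associated, 3 transmembrane and 2 multiplexins, and 1, Col7a1, is in a class of its own. Of a list of 45 chain genes drawn up for these classes, 18, among them Col10a1, Col4a2, Col6a1, Col6a3, Col9a3 and Col12a1, were matched to no row and are not analysed here. Just inside the count rule were Col1a2, with 1 to 14 counts and 10 or more in 3 libraries, and Col23a1, with 1 to 39 counts and 10 or more in 9 libraries. Col26a1, with 0 to 4 counts, fell outside it.

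The libraries came from wild-type rats with a critical-sized defect of the radius bridged by a 3D-printed implant. All 3 implants are polycaprolactone (PCL), a slowly degrading polyester, either bare (PCL), with calcium phosphate microparticles (CaP), or with chitosan nanoparticles that carry amorphous calcium phosphate (ACPC-NP). Bone within 1 mm of the implant was collected 2 or 6 weeks after surgery, cells freed from marrow and bone were pooled, and polyadenylated RNA was sequenced, with 3 libraries for each implant and week. The marrow was treated with red cell lysis buffer and both tissues were digested with collagenase. Every group carries an implant, and neither the age nor the sex of the animals is stated in the labels. Whether a group's libraries stem from different animals is not stated, so p-values measure the spread between libraries, which may be technical. In such bulk samples fewer cells of a type and less RNA per cell cannot be told apart.

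Type I collagen, made mainly by osteoblasts and fibroblasts, is the main organic component of bone matrix, and types III and V assemble with it in young fibrils. Cartilage has its own fibril of types II and XI with type IX on its surface, and a cartilage template precedes bone where a defect heals by endochondral ossification. Type IV networks form basement membranes around vessels, and type VI beaded filaments surround cells.

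Total counts ran from 18880604 to 27186587 per library. Levels are given as CPM, counts scaled to libraries of one common size, after trimmed-mean (TMM) scaling. Reads of the 26 genes made up 0.468% to 3.69% of a library. One library stood apart from the rest, ACPC-NP week 2 replicate 3: its first principal component score was 91.4, against -23.9 to 25.5 in the others, its TMM factor was 0.71, and the ferritin gene Fth1 took 3.51% of its counts. Every osteoblast, endothelial and haematopoietic marker in the table was detected in every library, and 7 or more of 8 chondrocyte markers were. The haematopoietic sum was the highest of these sums, 26216 to 72203 CPM. Counting error matters for Col1a2, Col23a1, Col4a4 and Col8a1, each of which had libraries with under 10 counts, as did Col9a1 and Col9a2.

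Sequence just upstream of the start was available in RefSeq (rat assembly GRCr8) for 21 of the 26 genes, not including Col1a1, Col2a1 or Col3a1, and 14 of these windows end at the gene's outermost start. Windows of 250 bases are shown for Col5a2 and Col13a1, which were lower at week 6, and for Col9a1 and Col11a1, a pair of cartilage genes with very different spread between libraries. These 4 were chosen after their values and matches had been seen. Capitals mark matches on either strand to any of 5 short motifs: TATAAA for the TATA box, CCAAT for the box of that name, GGGCGG for the GC box, TGTGGT for the core of RUNX sites and ACAAAG for the core of SOX sites.
Col5a2, chr9:55090152-55090401, minus strand: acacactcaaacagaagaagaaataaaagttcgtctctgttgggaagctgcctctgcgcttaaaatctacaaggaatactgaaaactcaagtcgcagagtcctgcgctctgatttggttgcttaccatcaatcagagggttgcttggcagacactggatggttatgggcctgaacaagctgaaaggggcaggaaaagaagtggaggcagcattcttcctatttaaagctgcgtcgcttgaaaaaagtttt
Col13a1, chr20:30466801-30467050, minus strand: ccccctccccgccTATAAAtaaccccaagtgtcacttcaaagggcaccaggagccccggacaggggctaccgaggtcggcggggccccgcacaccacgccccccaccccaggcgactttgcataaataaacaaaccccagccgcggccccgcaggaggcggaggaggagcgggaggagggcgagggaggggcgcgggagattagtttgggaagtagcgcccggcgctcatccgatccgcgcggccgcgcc
Col9a1, chr9:34081114-34081363, plus strand: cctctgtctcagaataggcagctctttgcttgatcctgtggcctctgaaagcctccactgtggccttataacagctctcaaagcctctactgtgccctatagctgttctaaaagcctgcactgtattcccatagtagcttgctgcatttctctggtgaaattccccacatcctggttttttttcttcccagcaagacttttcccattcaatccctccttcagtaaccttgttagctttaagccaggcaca
Col11a1, chr2:204508886-204509135, plus strand: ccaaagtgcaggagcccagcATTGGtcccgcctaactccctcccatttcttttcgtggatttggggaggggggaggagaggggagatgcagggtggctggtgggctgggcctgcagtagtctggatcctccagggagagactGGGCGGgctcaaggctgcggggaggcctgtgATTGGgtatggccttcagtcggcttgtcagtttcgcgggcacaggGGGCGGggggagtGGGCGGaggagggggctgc

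The Col13a1 window has a TATAAA match near the far end from the start and the Col11a1 window has GC and CCAAT boxes, while those of Col5a2 and Col9a1 hold none of the 5 motifs. GGGCGG was found in 12 of the 21 windows (57.1%), against 30.5% of all 33469 windows of the same length. CCAAT was found in 6 (28.6%, against 34% of all windows) and TATAAA in 3 (14.3%, against 12.9%). TGTGGT and ACAAAG were each found in 1 window (4.76%), against 14.5% and 16.3% of all windows. These matches describe letters only. In the same assembly Col3a1 and Col5a2 are neighbours on chromosome 9, as are Col4a4 and Col4a3.

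The first comparison asked how collagen expression differed between an early and a later stage of repair, taking the mean of the week 6 against week 2 difference over the 3 scaffolds. Of the 26 genes, 4, of which 3 are fibrillar, passed the test (edgeR quasi-likelihood, Benjamini-Hochberg adjusted p under 0.05 over all tested genes), all of them lower: Col1a1, Col5a1, Col5a2 and Col13a1. Among all genes tested 0.508% were called lower and 0.686% in either direction. The log2 fold change was below 0 for 21 of 26, with a median of -1.004, against a median of -0.02 over all genes tested. At an unadjusted p under 0.05, 12 were lower (7.92% of all genes were) and 1, Col6a4, was higher. DESeq2 called 8 lower (1.75% of all genes) and limma voom with quality weights called 14 lower (7.22%). Fewer were called in edgeR with other choices: 2 with DESeq2 size factors or with no filter on low counts (Col1a1 and Col5a1 in each), 1 (Col1a1) with the replicate number as a block, and 0 with total counts in place of TMM, where 12 were lower at an unadjusted p under 0.05.

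**Figure D1:**
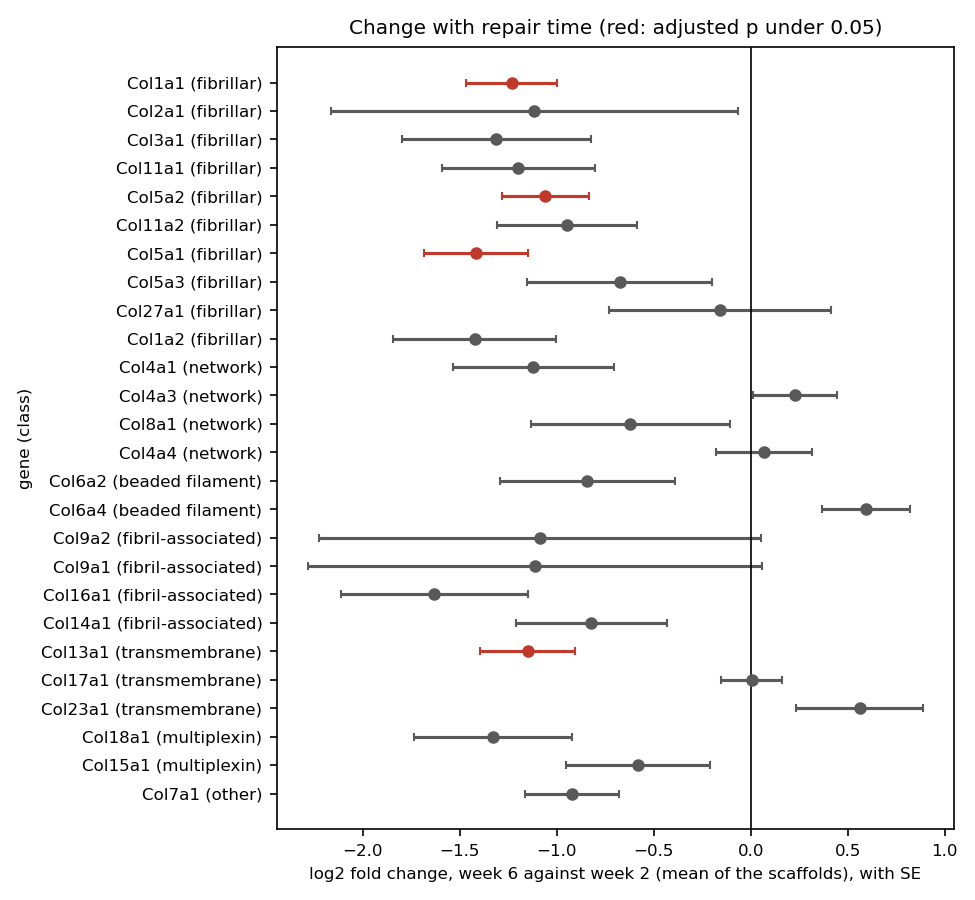
Log2 fold change of each of the 26 collagen chain genes at week 6 against week 2 (horizontal axis), the mean of the 3 scaffolds, with its standard error as a bar and genes in rows by structural class. The 4 red points (Col1a1, Col5a1, Col5a2, Col13a1) passed the test, and 21 points lie left of 0.

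Col1a1 encodes the pro-alpha1 chain of type I collagen. At week 2 it stood at 20201, 21172 and 7546 CPM around ACPC-NP, 10960, 18573 and 25367 around CaP, and 14804, 23464 and 18272 around PCL. At week 6 the values were 4373, 5617 and 7483 around ACPC-NP, 6561, 6660 and 13583 around CaP, and 8338, 9855 and 6722 around PCL. All 9 week 6 libraries lay below the week 2 median of 18573 CPM, and 6 lay below the lowest week 2 library, which was the one that stood apart. The log2 fold change was -1.23 ± 0.24 (SE, edgeR adjusted p = 0.0350).

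Col5a1 and Col5a2 encode chains of type V collagen, a minor fibrillar collagen that sets the diameter of type I fibrils. Col5a1 at week 2 was 323, 326 and 155 CPM around ACPC-NP, 215, 260 and 469 around CaP, and 193, 344 and 370 around PCL. By week 6 it was 44.0, 81.7 and 148 around ACPC-NP, 142, 76.1 and 153 around CaP, and 161, 120 and 76.1 around PCL. The 3 week 2 libraries of each scaffold all exceeded the 3 week 6 libraries of that scaffold. Its log2 fold change was -1.42 ± 0.27 (edgeR adjusted p = 0.0344).

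Col5a2 was between 158 and 573 CPM at week 2 (median 351) and between 86.1 and 224 at week 6 (median 164). Its ranges did not overlap around CaP, at 252, 351 and 573 CPM against 193, 128 and 220, or around PCL, at 268, 441 and 385 against 224, 164 and 134. Around ACPC-NP they did overlap, at 364, 347 and 158 CPM against 86.1, 143 and 209. The log2 fold change was -1.06 ± 0.23 (edgeR adjusted p = 0.0469). Reads of Col5a1 per 100 of Col5a2 ran from 72.0 to 97.8 at week 2 and from 51.0 to 73.5 at week 6, a description of read numbers and not of chain ratios.

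Col13a1 encodes a transmembrane collagen found at sites of cell adhesion. It was 17.4, 19 and 7.30 CPM around ACPC-NP at week 2, 13, 18.4 and 25.5 around CaP, and 11.1, 22.6 and 12.3 around PCL. The week 6 values were 4.40, 4.33 and 6.09 around ACPC-NP, 6.33, 5.44 and 15.7 around CaP, and 8.45, 9.22 and 8.19 around PCL. The groups of 3 were separate around ACPC-NP and PCL, and CaP week 6 replicate 3 overlapped with its week 2 group. The log2 fold change was -1.15 ± 0.25 (edgeR adjusted p = 0.0469).

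**Figure D2:**
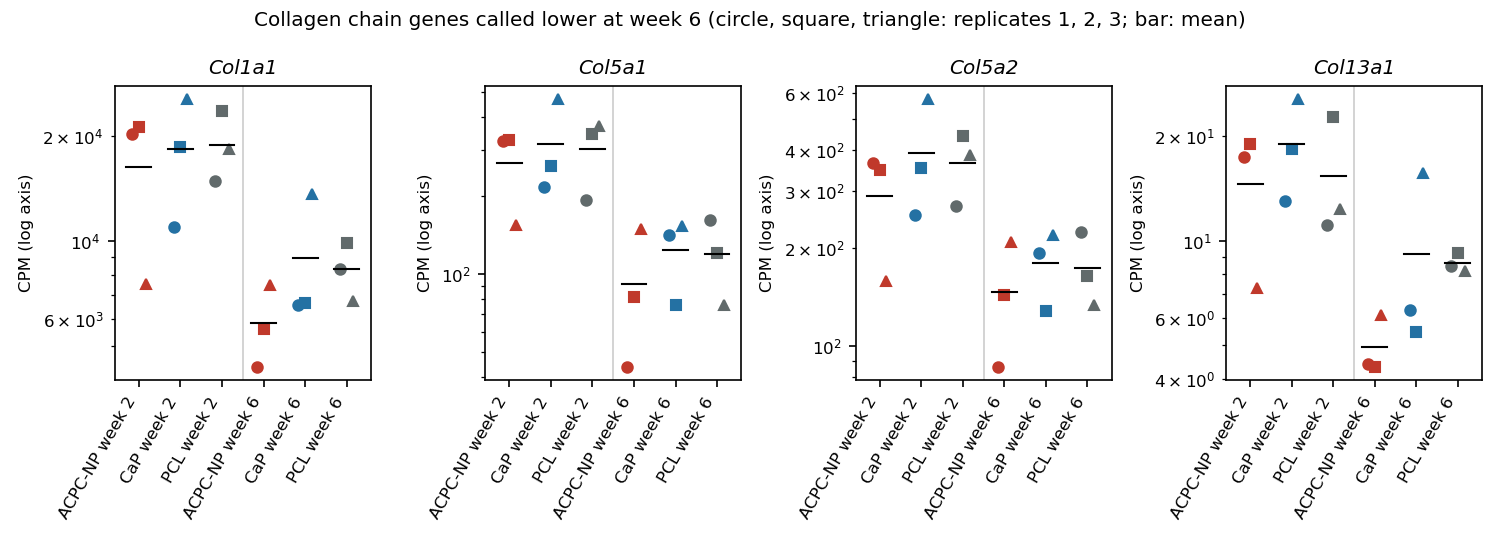
CPM on a log axis (vertical) of Col1a1, Col5a1, Col5a2 and Col13a1 in the 6 groups of scaffold and week (horizontal), with 1 symbol per library and the group mean as a bar. In each panel the week 6 groups sit lower, and all 9 week 6 libraries of each gene lie below its week 2 median.

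These calls were close to the threshold, and their number changed with the libraries included. So did the number over all genes, where 60 of 11814 were called lower with every library included. Without PCL week 6 replicate 3 it was 2 of 11965, the lowest of the 18 fits. Without ACPC-NP week 6 replicate 3 it was 150 of 11932, the highest. With 1 library left out at a time, none of the 26 genes was called in 12 of 18 fits: without ACPC-NP replicates 1 or 2, CaP replicates 2 or 3 or PCL replicates 2 or 3 at week 2, and without ACPC-NP replicates 1 or 2, CaP replicates 1 or 2 or PCL replicates 2 or 3 at week 6. In the other fits 4 were called without ACPC-NP week 2 replicate 3, 3 without CaP week 2 replicate 1, CaP week 6 replicate 3 or PCL week 6 replicate 1, 2 without PCL week 2 replicate 1, and 6 without ACPC-NP week 6 replicate 3. The direction did not change: Col1a1 ranged from -1.38 to -1.13 over the 18 fits, Col5a1 from -1.60 to -1.28, Col5a2 from -1.18 to -0.93 and Col13a1 from -1.36 to -1.02. Osteoblast and fibroblast markers moved with these genes. Summed osteoblast markers (6 genes, none at 0) were 325 to 919 CPM at week 2 and 287 to 821 at week 6. Of their fold changes 6 of 6 were below 0 and none was called, with 4 at an unadjusted p under 0.05 (7.92% of all genes were lower at that p). Summed fibroblast and tendon markers (8 genes, none at 0) were 179 to 653 and 58.9 to 317 CPM, with 8 of 8 below 0, 6 at an unadjusted p under 0.05. The tendon gene Tnmd was called, at -2.697 ± 0.44 (0.508% of all genes were called lower). Skeletal muscle markers went the other way, from 20.03 to 70.7 CPM at week 2 and from 49.5 to 491 at week 6, with 5 of 5 above 0 and none called, all 5 at an unadjusted p under 0.05 (6.67% of all genes were higher at that p). Below 0 were 5 of 5 endothelial and 4 of 5 pericyte and smooth muscle markers. Above 0 were 4 of 4 tested marrow stroma and adipocyte markers and 4 of 5 haematopoietic ones. None in these lists reached an unadjusted p under 0.05. The part of any of these markers in the result was not tested.

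By class, all 10 fibrillar genes had fold changes below 0, with a median of -1.16 and 3 called. Of the 4 network genes 2 were below 0 and none was called, with a median of -0.28. That median sets Col4a1, with a mean of 199 CPM and a change of -1.12, beside genes of few reads. Col4a3, Col8a1 and Col4a4 had means of 3.21, 2.58 and 0.55 CPM. All 4 fibril-associated genes were below 0 (median -1.10, none called), as were both multiplexins (median -0.96, none called). Of the 3 transmembrane genes 2 were above 0 and 1, Col13a1, was called lower. Of the 2 beaded filament genes 1 was above 0 and 1 below, and none was called. Of the genes outside the called set, Col16a1, a fibril-associated chain, had the lowest estimate, -1.63 ± 0.48 (edgeR adjusted p = 0.152). Col7a1, the anchoring fibril collagen, had -0.92 ± 0.24 (edgeR adjusted p = 0.110). Whether classes differed from each other was not tested.

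Col3a1 encodes type III collagen, abundant in granulation tissue and vessel walls. It was 1288, 896 and 654 CPM around ACPC-NP at week 2, 1035, 699 and 1986 around CaP, and 551, 895 and 1954 around PCL. Later, at week 6, it was 105, 160 and 768 around ACPC-NP, 820, 222 and 256 around CaP, and 1208, 404 and 132 around PCL. Within each scaffold 1 week 6 library remained within the week 2 range and the others lay below it. The log2 fold change of -1.31 ± 0.49 did not pass the test (edgeR adjusted p = 0.239). Col3a1 gave 1.89 to 14.5 reads per 100 Col1a1 reads, with both extremes at week 6.

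Col1a2 encodes the alpha2 chain that joins Col1a1 products in type I collagen. Its counts were 1 to 14 per library, beside 102355 to 643110 for Col1a1, so this table does not show the level of its transcript in a form that can be set beside that of Col1a1. Around ACPC-NP it was 0.354, 0.473 and 0.112 CPM at week 2 and 0.0427, 0.0451 and 0.0521 at week 6. Around CaP it was 0.247, 0.167 and 0.552 and then 0.104, 0.131 and 0.522, and around PCL 0.345, 0.356 and 0.167 and then 0.122, 0.119 and 0.127. The low count was present in every library at both weeks. The fitted change, -1.42 ± 0.42, did not pass the test (edgeR adjusted p = 0.151), and the reason for the low counts was not tested.

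Col4a1, a basement membrane chain, was the most read network gene. Around ACPC-NP it was 216, 322 and 216 CPM at week 2 and 42.2, 37.9 and 255 at week 6. Around CaP it was 224, 257 and 500 and then 142, 41.6 and 153. Around PCL it was 169, 185 and 365 and then 262, 139 and 56.5. The CaP ranges did not overlap, while ACPC-NP replicate 3 and PCL replicate 1 at week 6 reached week 2 levels. The fold change was -1.12 ± 0.41 (edgeR adjusted p = 0.238). The other basement membrane chains of the class, Col4a3 and Col4a4, had 0.23 ± 0.22 and 0.07 ± 0.25, and Col8a1, made by vessel wall cells, had -0.62 ± 0.51.

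Col6a2, a chain of the type VI filament, was 469, 211 and 143 CPM around ACPC-NP at week 2, 180, 166 and 426 around CaP, and 105, 196 and 344 around PCL. Its week 6 levels were 39.1, 74.9 and 272, then 238, 49.0 and 156, and 267, 83.8 and 63.2 in the same order of scaffolds. High and low libraries occurred in every scaffold at week 6. The fold change was -0.84 ± 0.45 (edgeR adjusted p = 0.401). The 9 libraries with the most Col6a2 were the 9 with the most Col3a1, while Col2a1 shared 5 of its top 9 with Col3a1. These are descriptions of 18 libraries that share their depth and tissue.

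Col18a1, a multiplexin of basement membranes whose C-terminal fragment is endostatin, was 69.2, 94.1 and 72.4 CPM around ACPC-NP at week 2, 62.8, 66.5 and 148 around CaP, and 46.6, 61.2 and 106 around PCL. At week 6 it was 9.95, 14.4 and 72.8, then 41.1, 11.5 and 35.8, and 58.3, 31.3 and 12.9. Only the CaP ranges did not overlap. The fold change was -1.33 ± 0.41 (edgeR adjusted p = 0.163). Col7a1 was 5.12, 3.23 and 5.56 CPM around ACPC-NP, 3.49, 2.64 and 5.68 around CaP and 1.69, 3.48 and 3.29 around PCL at week 2. At week 6 it was 1.79, 1.13 and 1.98, then 2.22, 1.09 and 1.23, and 4.57, 2.45 and 2.00. Its week 6 values were lower around ACPC-NP and CaP, where the ranges did not overlap, and not around PCL.

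**Figure D3:**
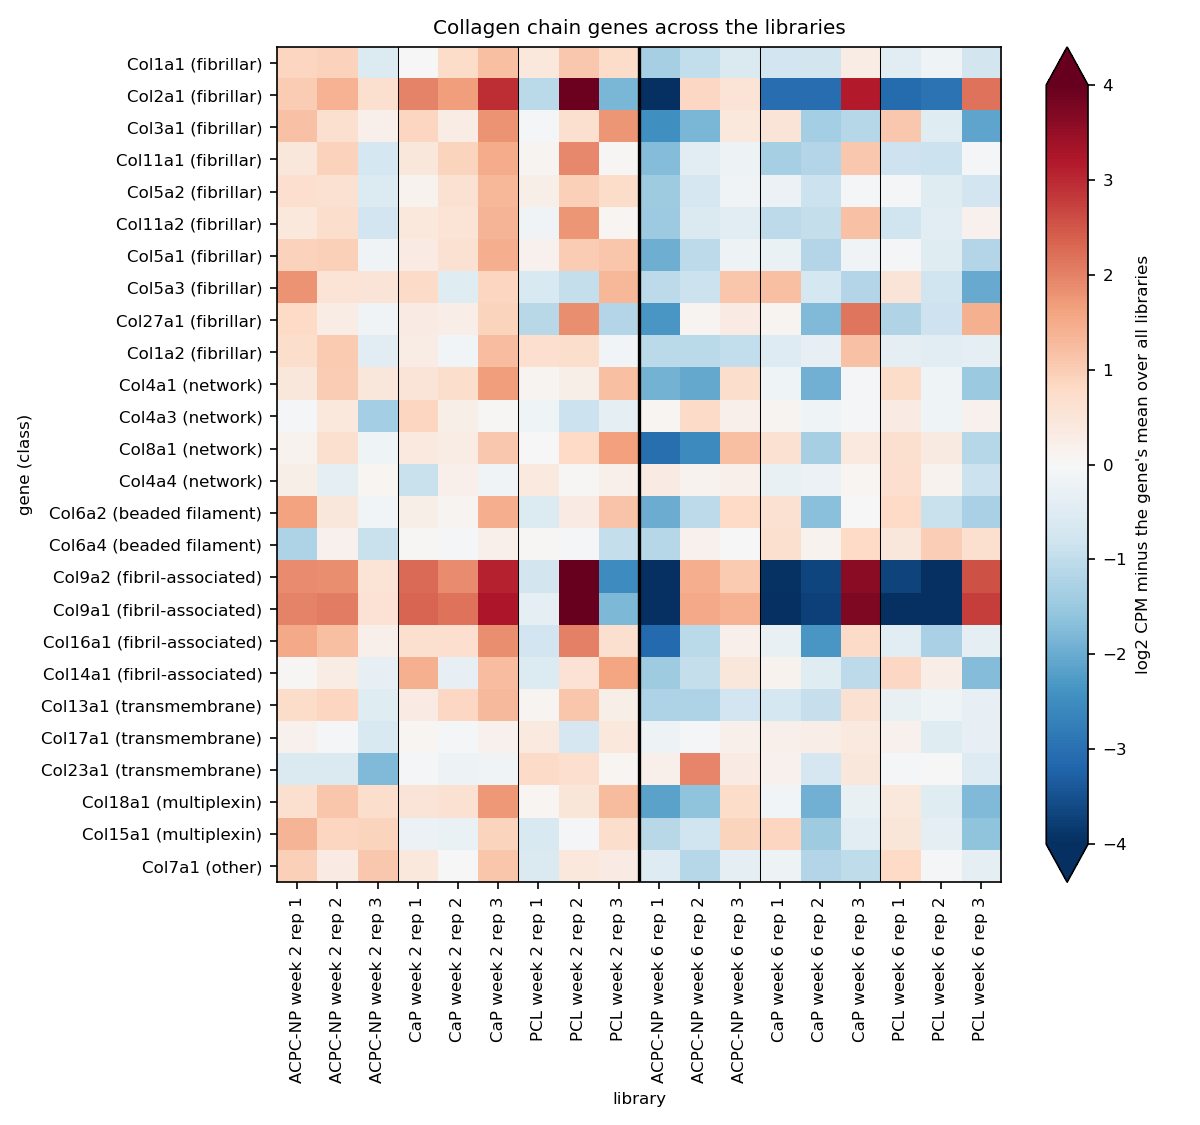
Log2 CPM of each of the 26 genes minus the gene's mean over all libraries (colour, blue low and red high, scale ends at -4 and 4), with genes in rows by class and the 18 libraries in columns by week and scaffold. The Col2a1, Col9a1 and Col9a2 rows swing between libraries of the same group, and the week 6 columns are bluer for most fibrillar genes.

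Col2a1, Col9a1 and Col9a2 spread very widely between libraries in the PCL week 2 group and in each week 6 group. Around ACPC-NP and CaP at week 2 they spread much less. Col2a1, the chain of type II collagen, was 970, 1276 and 759 CPM around ACPC-NP at week 2, 1901, 1547 and 3759 around CaP, and 227, 7318 and 135 around PCL. At week 6 it was 11.8, 853 and 700 around ACPC-NP, 58.5, 58.8 and 4390 around CaP, and 57.6, 62.6 and 2195 around PCL. The highest library held 618 times the level of the lowest, and at week 6 every scaffold had a library between 11.8 and 62.6 CPM and another between 700 and 4390. The fold change over the weeks was -1.12 ± 1.05 (edgeR adjusted p = 0.644).

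Col9a2, a type IX chain carried on the cartilage fibril, followed the same libraries. It was 41.0, 40.3 and 16.3 CPM around ACPC-NP at week 2, 53.0, 41.0 and 93.9 around CaP, and 6.55, 243 and 1.87 around PCL. At week 6 it was 0.171, 30.2 and 23.0, then 0.626, 0.784 and 136, and 0.776, 0.356 and 64.6. The 9 libraries with the most Col2a1 were also the 9 with the most Col9a2 and with the most Col9a1, the partner chain, which had 1 count in ACPC-NP week 6 replicate 1 and 6291 in PCL week 2 replicate 2. The type XI chains varied less, by 12.8 times for Col11a1 and 9.14 times for Col11a2. These genes were singled out from the cartilage list after their values were seen.

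**Figure D4:**
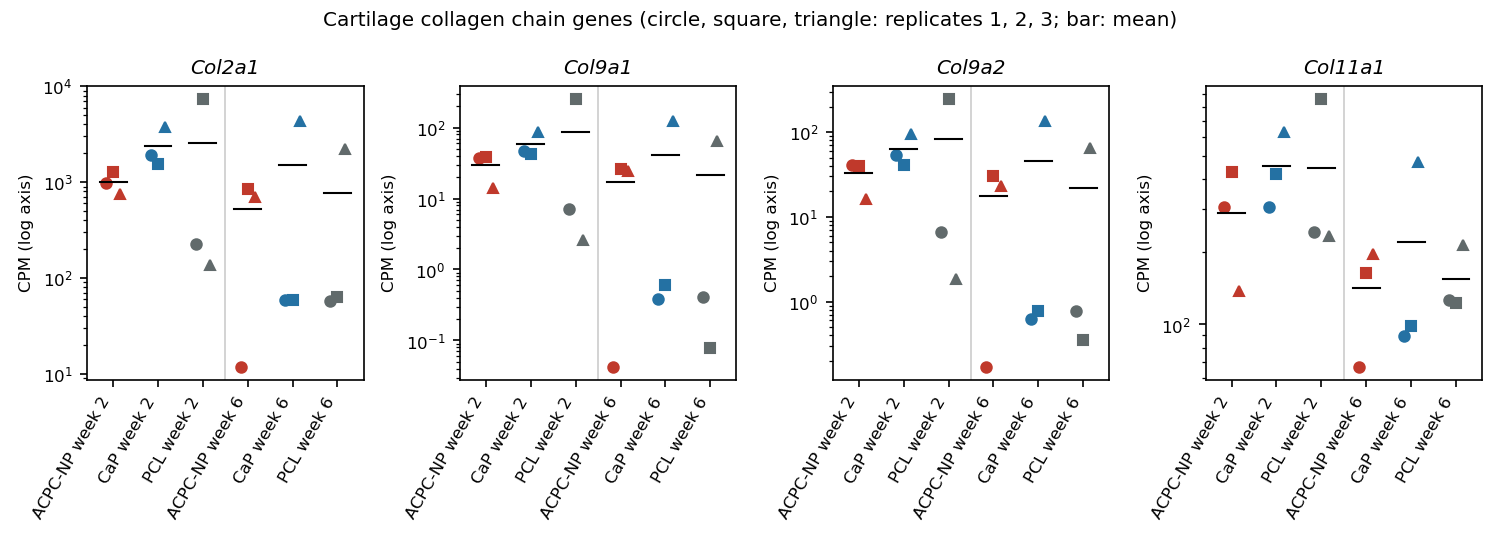
CPM on a log axis (vertical) of Col2a1, Col9a1, Col9a2 and Col11a1 in the 6 groups (horizontal), with 1 symbol per library and the group mean as a bar. At week 6 Col2a1 falls into low libraries of 11.8 to 62.6 CPM and high ones of 700 to 4390 CPM within every scaffold.

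All 5 cartilage genes had week 6 fold changes below 0 (median -1.11), as did 55.5% of all genes, and none was called. At an unadjusted p under 0.05, 2 of them, Col11a1 and Col11a2, were lower (7.92% of all genes were). Summed chondrocyte markers were high in the libraries with the most Col2a1 and low in the library with the least. The sum of the 8 markers in the table was 1040 CPM in PCL week 2 replicate 2 and 783 in CaP week 6 replicate 3, both high in Col2a1. It was 9.40 in ACPC-NP week 6 replicate 1 and 17.0 in CaP week 6 replicate 2, both low in Col2a1. Between these extremes the order was not always kept. The sum was 123 CPM in PCL week 2 replicate 3 and 115 in ACPC-NP week 2 replicate 3, where Col2a1 was 135 and 759 CPM. Matn1, 1 of the 8, did not follow Col2a1 throughout. It was 0.939 CPM in PCL week 6 replicate 1, low in Col2a1, and 0.0822 in CaP week 2 replicate 1, high in Col2a1. At most 1 of the 8, Epyc, was at 0 in any library. Between the weeks the markers were split, with 4 of the 7 tested below 0 and 3 above and none called, and 1, Chad, higher at an unadjusted p under 0.05 (1.81 ± 0.68, edgeR adjusted p = 0.245). How much of a cartilage difference lies in which tissue was collected was not tested. Cartilage genes made up 2.62% to 27.5% of collagen reads and Col1a1 66.6% to 88.7%. In ACPC-NP week 6 replicate 1, where the cartilage share was 3.17%, most of it was type XI. Col11a1 had 1564 counts there and Col11a2 1812, beside 277 for Col2a1, 4 for Col9a2 and 1 for Col9a1. Col11a1 shared 7 of its top 9 libraries with Col2a1 and 9 with Col1a1, and Col11a2 shared 8 with each.

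Within single scaffolds the median change with time was below 0 for each scaffold, but edgeR called none of the 26 genes. Around ACPC-NP, where 0.00846% of all genes were called, 7 were lower and 1, Col23a1, higher at an unadjusted p under 0.05 (19.8% of all genes passed that). Around CaP 6 were lower and none higher (0% of all genes called, 4.82% at unadjusted p), and around PCL 4 were lower and 1 higher (0% and 9.87%). The medians over the 26 were -0.99, -0.70 and -0.84. DESeq2 called 5 around ACPC-NP (6.65% of all genes), namely Col1a1, Col5a1, Col7a1, Col13a1 and, higher, Col23a1. It called no collagen gene around the others, where over all genes it called 1 higher and 4 lower (CaP) and 17 higher and 19 lower (PCL). Voom called 15 around ACPC-NP (11.7%), 4 around PCL (14.8%), namely Col1a1, Col5a1, Col5a2 and Col18a1, and none around CaP.

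Week 6 ranges lay wholly below week 2 ranges for 5 genes around ACPC-NP (9.30% of all genes did), 5 around CaP (7.93%) and 7 around PCL (6.70%). Col5a1 was the gene in all 3 sets. Col1a2 was in the ACPC-NP and PCL sets and Col23a1 in the PCL set, both with few counts. Week 6 ranges lay wholly above week 2 ranges for 1 gene around ACPC-NP, Col23a1 (1091 of 11814 genes did). They did so for 1 around CaP, Col17a1 (701), and 2 around PCL, Col6a4 and Col4a3 (917). Col1a1 was lower by -1.49 ± 0.41 around ACPC-NP, -1.03 ± 0.41 around CaP and -1.18 ± 0.41 around PCL on the log2 scale, with edgeR adjusted p of 0.0994, 0.953 and 0.430. The test of whether the change differed between scaffolds called no collagen gene, and 0% of all genes, for any pair of scaffolds. At an unadjusted p under 0.05 it gave 2 genes for ACPC-NP against PCL (15.0% of all genes), 2 for ACPC-NP against CaP (14.2%) and 1 for CaP against PCL (1.68%). Voom called 1, Col23a1, for ACPC-NP against PCL (16.5% of all genes), and DESeq2 called no collagen gene. Over all 11805 genes DESeq2 called 46 higher and 91 lower for ACPC-NP against PCL. For ACPC-NP against CaP these numbers were 84 and 108, and for CaP against PCL 1 and 1.

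The scaffolds themselves were compared at each week, which addresses the study's question of how ACPC-NP differs from the other implants. At neither week did the edgeR fit used throughout call a collagen gene between any pair, nor any other gene (0%). With the replicate block edgeR called 111 genes higher and 316 lower for ACPC-NP against PCL at week 6. With total counts in place of TMM it called 32 higher for that pair at week 2. No collagen gene was among them. DESeq2 and voom calls are given below, and the estimates here are from the edgeR fit used throughout. Col1a1 was -0.21 ± 0.40 on the log2 scale for ACPC-NP against PCL at week 2 and -0.51 ± 0.40 at week 6, with intervals of 2 SE from -1.02 to 0.60 and from -1.32 to 0.30. Against CaP it was -0.17 ± 0.40 and -0.62 ± 0.41. Col2a1 was -1.35 ± 1.83 and -0.57 ± 1.80 for ACPC-NP against PCL, and its sign turned to 2.47 without PCL week 2 replicate 2 and to 3.16 without PCL week 6 replicate 3. Such intervals hold differences of more than 2-fold in either direction for Col2a1, so likeness between scaffolds is not shown. Against CaP, Col2a1 was -1.26 at week 2 and stayed below 0 with any 1 library left out (-1.49 to -0.78). At week 6 it was -1.53 and turned to 3.15 without CaP week 6 replicate 3. At week 2 the ACPC-NP range lay wholly below that of CaP for 4 of 26 genes (934 of 11814 over all genes). These were Col2a1, Col9a1, Col9a2 and Col23a1. It lay wholly above for 0 of 26 (1012 of 11814).

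At an unadjusted p under 0.05 the collagen genes gave few calls. There was 1, Col23a1, for ACPC-NP against PCL at week 2 (15.7% of all genes), none for ACPC-NP against CaP (15.7%) and 1, Col4a3, for CaP against PCL (1.55%). At week 6 there were 2 for ACPC-NP against PCL, Col6a4 and Col23a1 (21.9%), 2 for ACPC-NP against CaP, Col1a2 and Col23a1 (9.34%), and 1, Col7a1, for CaP against PCL (2.57%). Voom called Col6a4 for ACPC-NP against PCL at week 6 (34.3% of all genes), and DESeq2 called no collagen gene in any pair. Over all 11805 genes DESeq2 called 603 higher and 31 lower for ACPC-NP against PCL at week 2, and 390 and 511 at week 6. For ACPC-NP against CaP it called 535 and 60, then 12 and 11, and for CaP against PCL 0 at each week. Voom at week 2 called 270 higher and 39 lower of 11814 genes for ACPC-NP against PCL. For ACPC-NP against CaP it called 289 and 87. Medians over the 26 were -0.24, -0.38 and 0.11 at week 2, in the order ACPC-NP against PCL, ACPC-NP against CaP and CaP against PCL, and -0.36, -0.34 and 0.10 at week 6. With voom the direction turned for ACPC-NP at week 2, to 0.35 against PCL, with 20 of 26 above 0 in place of 9, and to 0.008 against CaP, with 14 above 0 in place of 5. Comparisons that share a scaffold share its libraries.

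Col23a1, a transmembrane collagen, is named here after its values were seen. It had 0.236, 0.237 and 0.0561 CPM around ACPC-NP at week 2 and 0.470, 1.76 and 0.521 at week 6, while around PCL it had 0.728, 0.673 and 0.416 and then 0.367, 0.396 and 0.255. The ranges were separate in opposite directions around these scaffolds, and the difference of the changes was 3.12 ± 0.80 (edgeR adjusted p = 0.278). All of this rests on 1 to 39 counts per library, and without ACPC-NP week 6 replicate 2 the ACPC-NP change went from 2.29 to 1.40.

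**Figure D5:**
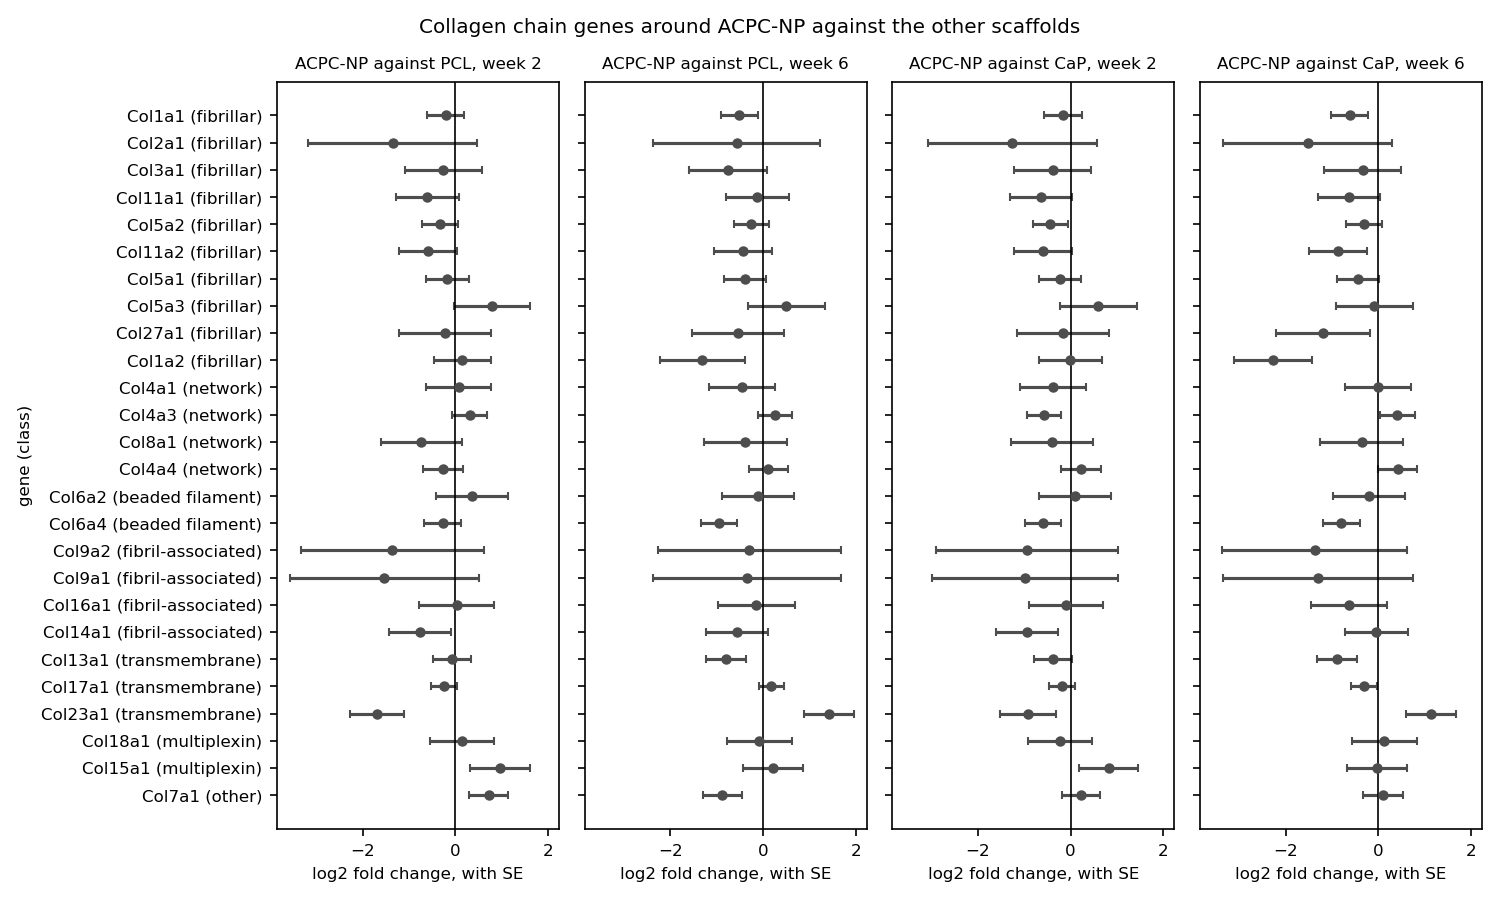
Log2 fold change with its standard error (horizontal axis) of each of the 26 genes (rows, by class) for ACPC-NP against PCL and against CaP at weeks 2 and 6. No gene passed the test in any panel, and the bars of Col2a1, Col9a1 and Col9a2 are the widest.

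Genes that act on collagen were followed as 5 lists. Of 19 tested genes of biosynthesis and folding, 5 were lower at week 6 over the scaffolds (0.508% of all genes were): Serpinh1, the collagen chaperone, Creb3l1, a transcription factor that drives collagen secretion, and P3h1, P3h4 and Fkbp10, of the endoplasmic reticulum machinery that modifies and folds procollagen. Creb3l1 was 19 to 40.1 CPM at week 2 and 7.60 to 24.1 at week 6, a change of -1.21 ± 0.20 (edgeR adjusted p = 0.0170). Fkbp10 changed by -1.18 ± 0.23, P3h4 by -1.28 ± 0.24 and P3h1 by -0.70 ± 0.12. The list's median was -0.48.

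Of 17 tested genes of propeptide processing and crosslinking, 2 were lower (again against 0.508% of all genes): Lox, the lysyl oxidase that crosslinks fibrils, and Bmp1, the procollagen C-proteinase. Lox was 13.7 to 39.6 CPM at week 2 and 2.65 to 16.8 at week 6, a change of -1.77 ± 0.28 (edgeR adjusted p = 0.0170), and Bmp1 changed by -0.73 ± 0.13. No gene passed among 9 collagen receptors, 13 genes of collagen degradation and 16 regulators, of which 5, 4 and 2 were lower and none higher at an unadjusted p under 0.05, where 7.92% of all genes were lower. The smallest p in these lists belonged to the receptors Itga11 (-0.72 ± 0.16) and Mrc2 (-0.95 ± 0.22), the degradation genes Mmp2 (-0.91 ± 0.29) and Mmp13 (-1.07 ± 0.37), and the transcription factors Sp7 (-1.08 ± 0.24) and Scx (-1.18 ± 0.42).

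In the other 12 comparisons edgeR called no gene of these lists. Between ACPC-NP and PCL at week 2, 8 of 13 degradation genes, 5 of 19 biosynthesis genes and 3 of 9 receptors were higher and none lower at an unadjusted p under 0.05, where 12.3% of all genes were higher. Against CaP at week 2 these numbers were 6, 5 and 2 higher and none lower, where 1371 of 11814 genes were higher. P4ha1, a prolyl hydroxylase subunit, was 57.5, 97.6 and 814 CPM around ACPC-NP and 23.0, 48.1 and 29.4 around PCL. Mmp14, the membrane-bound collagenase, was 212, 225 and 570 CPM against 30.6, 69.7 and 54.5. The groups did not overlap for either gene, and 1130 of all 11814 genes were likewise wholly higher around ACPC-NP. Replicate 3 of ACPC-NP, the library that stood apart, was the highest for both. The log2 differences were 3.27 ± 0.80 and 2.7003 ± 0.67 (edgeR adjusted p = 0.0846 for each), and 1.20 ± 0.47 and 2.07 ± 0.66 without that library (0.738 and 0.552).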

How the data were processed

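Messenger RNA was measured in 18 libraries, 3 for each of 3 scaffolds at weeks 2 and 6, grouped by their titles in the labels. The deposited table holds counts of reads per gene symbol, not normalised by the authors. Per the submitters' processing notes, bcl2fastq 2.20.0, STAR 2.7.9a, build Rnor_6.0, Subread 2.0.1 and featureCounts were used; for annotation and strand setting, the sources used here give nothing. The deposited normalised table was not used. No library pair was a duplicate (lowest chi-square per degree of freedom 31.9).

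Counts were tested with edgeR 4.0.16 in R 4.3.3: filterByExpr (minimum count 10, minimum total 15) kept 11814 genes with 99.98% of counts, with TMM scaling, a term per group over all libraries, a robust quasi-likelihood fit (12 residual degrees of freedom, prior 2.92) and Benjamini-Hochberg adjustment within each of 13 comparisons at 0.05. The biological coefficient of variation was 26.0%. SE is the fold change divided by the root of the F statistic. Log2 CPM in the colour plot used a prior count of 2. The procedure was run on simulated counts for the mean week comparison only. These counts held no library that stood apart, so they cannot show how calls depend on single libraries. Alternatives were DESeq2 1.42.0, limma 3.58.1 voom with quality weights, other scalings, no filter, a replicate block, only the groups compared and each library left out.

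The genes and lists were chosen with earlier results of these data known. Named with every library were Col1a1, Col1a2, Col2a1, Col3a1, the gene of highest mean CPM in each class and in the cartilage list, and each called gene. Col10a1, also on that list, is not analysed here. For pathway lists up to 4 called genes, or the 2 of smallest p, were named with values. Serpinh1 is named beyond that rule, after its result was seen, to complete a count of 5.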

Additional observations from a re-analysis of the deposited data

How the results depend on the processing

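For the mean week comparison, 4 of the 26 collagen genes were called. With other settings the count was 8 with DESeq2, 14 with voom, 2 with the DESeq2 size factors in edgeR, 0 with total counts in place of TMM and 2 with no filter on low counts. Leaving out 1 library at a time gave 0 to 6, while over all genes 2 to 150 were called lower. All 6 groups enter that comparison, so a fit of only the groups compared gave no separate value. With the replicate number as a block (replicate block) 1 gene, Col1a1, was called; 18 of 45 pairs of same-numbered libraries of different groups deviated together (correlation over 0.1, range -0.33 to 0.42) and 7 of 18 libraries were closest to their own number, so the numbers were not taken to pair the samples. The cause of these shifts was not tested.

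The other counts, 0 in edgeR, became 5 (DESeq2) and 15 (voom) for the weeks of ACPC-NP, 4 for PCL with voom, and 1 with voom for ACPC-NP against PCL at week 6 and for its interaction. Leaving out libraries gave 0 to 1 for the weeks of ACPC-NP, the 1 being Col23a1 without ACPC-NP week 2 replicate 1, and 0 elsewhere.

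With total counts the median over all genes moved by over 0.1 for ACPC-NP at week 2, to -0.16 against PCL and -0.15 against CaP (-0.01 and -0.02 with TMM).

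Directions turned for Col1a1, Col2a1 and, with voom, the medians over the 26 genes for ACPC-NP at week 2 (0.35 against PCL, 0.008 against CaP). With voom Col1a1 at week 2 was 0.23 for ACPC-NP against PCL, 0.19 for ACPC-NP against CaP and 0.038 for CaP against PCL; Col2a1 was 1.95 for ACPC-NP against PCL and 2.58 for CaP against PCL at week 2, -0.30 for CaP against PCL at week 6 and 0.81 for the weeks of PCL. With the replicate block Col2a1 for CaP against PCL at week 2 was 0.50. With single libraries left out, Col1a1 ran from -0.44 to 0.12, -0.43 to 0.17 and -0.36 to 0.22 in those week 2 pairs and from -0.33 to 0.31 for CaP against PCL at week 6. Col2a1 ran from -1.91 to 2.47 and -0.65 to 3.73 against PCL at week 2 (ACPC-NP, CaP), from -1.14 to 3.16, -2.09 to 3.15 and -3.72 to 4.68 at week 6 (ACPC-NP against PCL, ACPC-NP against CaP, CaP against PCL), and from -5.44 to 2.09 for the weeks of PCL.

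With 3 libraries a group, differences in the cartilage genes smaller than their spread cannot be seen, and Col1a2 and Col23a1 are limited by counts.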

Other observations

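Other members outside the named set showed patterns of their own. Col6a4, a type VI related chain, was the gene with a higher estimate at week 6 at an unadjusted p under 0.05: it was 1.89 to 5.32 CPM at week 2 and 2.05 to 9.18 at week 6, a log2 change of 0.59 ± 0.23 that did not pass the test (edgeR adjusted p = 0.249). Around PCL its ranges did not overlap, at 4.71, 4.47 and 2.33 CPM against 6.33, 9.18 and 7.22. Col17a1, a hemidesmosome collagen of epithelia, varied least of the genes with at least 10 counts in every library, by 2.16 times, and its change was 0.00 ± 0.16.

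Col27a1, a fibrillar chain of cartilage that was not in the cartilage list, was highest in CaP week 6 replicate 3 at 50.2 CPM and PCL week 2 replicate 2 at 40.8 CPM, the libraries with the most Col2a1, and lowest in ACPC-NP week 6 replicate 1 at 2.18 CPM. It shared 8 of its top 9 libraries with Col2a1 and had the smallest change of the fibrillar genes, -0.16 ± 0.57. ACPC-NP week 6 replicate 1 also held the lowest level of Col1a1, Col2a1 and Col3a1.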
